A study of Mus musculus with 12 samples.

Results

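The thermoneutral cistrome of Rev-Erbα in mouse brown adipose tissue, that is, the genomic sites from which an HA-tagged Rev-Erbα was pulled down at 29 °C, is described here against the background of untagged mice kept at the same temperature. It comprised every row of the peak list that the authors made at 29 °C: 2183 sites, of 13410 in the 2 peak lists of the series, all of them windows of 200 bp. Behind it stood 6 of the 12 libraries of chromatin immunoprecipitation and sequencing (ChIP-seq). In 4 of these the animals were C57BL/6 mice of genotype HA-RevErba, which carry Rev-Erbα with an HA peptide tag, and in the other 2 they were C57BL/6 wild-type (WT) mice without the tag. All 6 came from brown adipose tissue of mice kept for 1 week at thermoneutrality and precipitated with the same HA magnetic beads, so the WT libraries measured what the beads recovered without a tagged protein. The labels give no age and do not say whether a library is 1 animal, which promoter drives the tagged allele, or at which hour tissue was taken. The authors deposited 1 value per site for the pooled HA-RevErba libraries and 1 for the pooled WT libraries. No site therefore has a replicate error, and the intervals below are exact Clopper-Pearson intervals of the ratio of reads, at the 95% level, that cover counting error only.

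Rev-Erbα, encoded by Nr1d1, is a nuclear receptor without an activation domain that represses transcription by recruiting NCoR and histone deacetylase 3. It binds as a monomer to the hexamer AGGTCA preceded by an A/T-rich stretch, or as a dimer to a direct repeat of AGGTCA spaced by a pair of bases (DR2). It closes the second feedback loop of the circadian clock by repressing Arntl (Bmal1), Npas2, Clock and Nfil3, and in brown fat it is known as a daily repressor of the thermogenic programme that includes Ucp1. Brown adipose tissue also holds endothelium, nerve, muscle and immune cells, and a site used in few cells cannot be told apart from a site weakly used in many.

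Sequences are shown for 8 of the 10 genes with a site within 1 kb of the start and TAGGTCA, or its complement TGACCTA. This 7-base element was sought in the promoter window of RefSeq (GRCm38.p6, 250 bases before to 50 after the annotated start). The sequences are printed in the sense of the gene, with the match in capitals and up to 30 bases on each side. The first 7 had the match inside the 200 bp site, judged by its distance to the start, and in the other 3 genes it lay outside. In Arntl, shown as a target of Rev-Erbα in the clock, the match lay 31 bases past the start and the centre of the site 153 bp past it. The 2 genes not printed were Bcas3os1 (match at -108, centre of the site at -241) and Etl4 (match at 35, centre at -928). The 90 bases before the start of Nr1d1, the strongest promoter site, hold no TAGGTCA in either direction and are shown without capitals. The centre of that site lay 10 bp past the start, so the printed bases leave out its part past the start. Whether the site holds another form of the element was not tested.
Nfil3, chr13:52981040-52981081, minus strand: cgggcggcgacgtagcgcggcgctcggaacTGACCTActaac
Fam124b, chr1:80213945-80213993, minus strand: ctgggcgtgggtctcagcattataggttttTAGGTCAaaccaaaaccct
Sumo3, chr10:77605904-77605970, plus strand: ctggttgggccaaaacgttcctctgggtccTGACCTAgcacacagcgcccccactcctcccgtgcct
Zfp740, chr15:102204402-102204468, plus strand: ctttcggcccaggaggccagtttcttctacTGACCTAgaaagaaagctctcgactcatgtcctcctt
4932438A13Rik, chr3:36862874-36862940, plus strand: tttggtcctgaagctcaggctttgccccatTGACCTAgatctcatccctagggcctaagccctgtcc
Aifm2, chr10:61720406-61720472, plus strand: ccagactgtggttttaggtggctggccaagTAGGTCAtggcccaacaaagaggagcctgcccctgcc
Leo1, chr9:75441431-75441497, plus strand: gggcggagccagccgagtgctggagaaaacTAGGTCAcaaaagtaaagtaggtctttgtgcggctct
Arntl, chr7:113207533-113207555, plus strand: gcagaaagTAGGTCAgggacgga
Nr1d1, chr11:98775378-98775467, minus strand: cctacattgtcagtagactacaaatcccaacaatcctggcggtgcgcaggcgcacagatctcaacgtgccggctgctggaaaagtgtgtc

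The share of promoters with TAGGTCA on either strand was 30% (9 of 30 genes with a sequence, 95% interval 14.7% to 49.4%) where the centre of a site lay within 300 bp of the start. It was 2.70% (1 of 37, 0.0684% to 14.2%) where the site lay over 300 bp and up to 1 kb away, and 2.97% (802 of 27025) over all genes with a window of the same length. The window, 250 bases before to 50 after the start, covers little or none of those farther sites. The shares of the farther promoters therefore cannot tell whether the sites there lack an element. The shorter AGGTCA, which every TAGGTCA contains, was in 46.7% of the near promoters (14 of 30), in 21.6% of the farther ones (8 of 37) and in 18.1% of all promoters. The perfect DR2, AGGTCANNAGGTCA, was in 0 of 30 near promoters, an upper bound of 11.6%, and in 2 of all 27025. The E-box CACGTG, the element bound by BMAL1 with CLOCK or NPAS2, was in 10% of near promoters (3 of 30), in 16.2% of the farther ones (6 of 37) and in 8.09% of all. Of 41 genes with a site within 300 bp, 30 had a sequence in the table, and a match describes letters in the window and not a binding site. The 9 genes with TAGGTCA include Nfil3, a clock repressor (13.25 FPKM of HA-RevErba against 0.81 of WT), Sumo3, a ubiquitin-like modifier (15.88 against 2.0), and Aifm2, an oxidoreductase that guards against ferroptosis (9.30 against 1.60).

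The density at a site is given in FPKM, the reads per kilobase of the site per M (mega) reads of the pool, to which the authors had added 0.01. The HA-RevErba density ran from 3.05 FPKM at the weakest site to 66.95 at the strongest, with a median of 5.60, and 10% of sites lay below 3.79 and 10% above 13.5. The WT density ran from no read at 68 sites to 4.79 FPKM, with a median of 0.81. The difference had a median of 4.82 FPKM and the ratio a median of 7.29. These values describe the list and do not support it. The list holds only sites more than 3 FPKM over WT (lowest 3.01) and, in reads, at least 4 times WT (lowest ratio 4.01). The lowest ratio of the deposited FPKM, with 0.01 added, was 3.97. Both limits are read from the values and are not stated by the authors. Between those limits the sites crowded at the low end: 765 (35.0%) differed by under 4 FPKM, 306 (14.0%) by 10 or more and 82 by 20 or more. The strongest 218 sites, each 11.9 FPKM or more over WT, held 29.2% of the summed difference. A median site rested on 68 HA-RevErba and 4 WT reads, and in all 2183 sites the counting interval of the ratio lay above 1. It lay above the list's own limit of 4 at 466 sites (21.3%), and at the other 1717 it included 4. That count was 278 with 99% intervals and 741 when the pools were scaled by aligned reads.

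**Figure D1:**
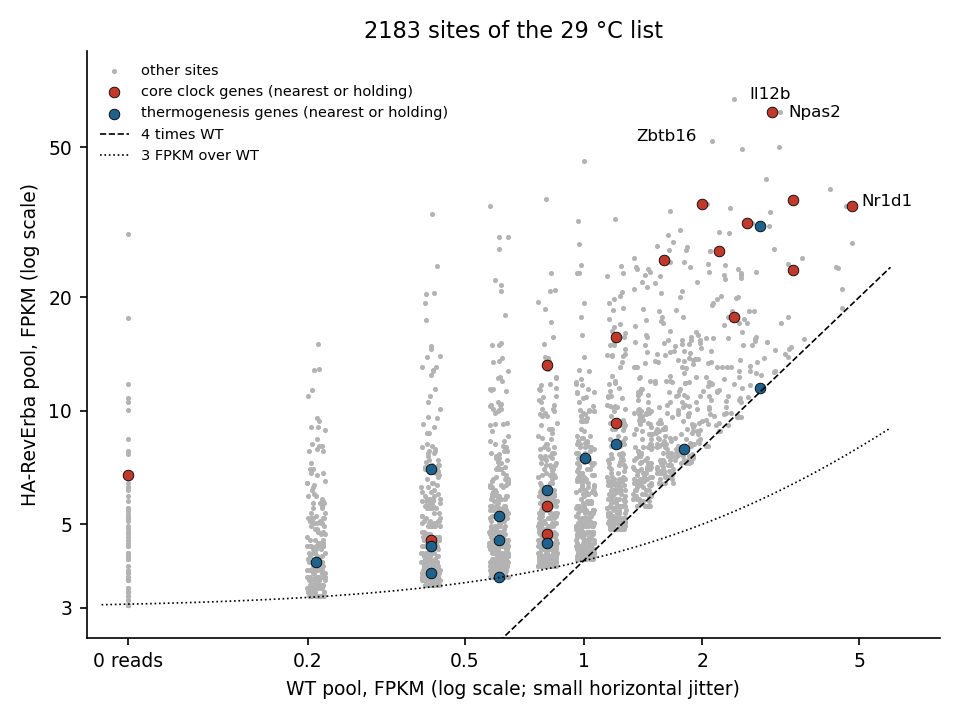
Density of HA-RevErba (vertical, FPKM, log scale) against WT (horizontal, FPKM, log scale, with a small sideways jitter) at each of the 2183 sites, with sites of core clock genes in red, of thermogenesis genes in blue, and the limits of the list as lines. Sites are densest toward the limits, and 35.0% exceed WT by under 4 FPKM. Red points reach 61.94 FPKM at Npas2, while the blue Ucp1 points, 11.52 and 7.91 FPKM, lie close to the line of 4 times WT.

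Sites strong in HA-RevErba were also higher in WT. The 218 sites with the largest difference had median densities of 18.51 FPKM in HA-RevErba and 1.60 in WT, and the 219 with the smallest had 3.79 and 0.61. Across the 2183 sites Spearman's rho of the 2 densities was 0.622, a description over sites that share both pools and whose limit of 4 times WT itself ties the densities together. The highest WT density, 4.79 FPKM, was found at the promoter of Nr1d1 (34.80 FPKM in HA-RevErba, ratio 7.27, 4.82 to 11.5), the gene that encodes the tagged protein. The same WT density was found 143 kb upstream of Irf2bp2, a transcriptional corepressor (27.81 FPKM, ratio 5.81). Next came an intron of Cars2, a mitochondrial cysteinyl-tRNA synthetase (4.59 FPKM in WT, 23.94 in HA-RevErba), a site nearest the noncoding RNA A530013C23Rik (4.39 and 21.06), and an intron of Col4a1 nearest the start of Col4a2 (4.39 and 18.68), both collagen IV chains. The WT density was also high at Dhrs3 (4.20), Lrrc8d (4.20), Gmpr (3.6), Tmem64 (3.6) and Cry1 (3.40). All 10 of these sites were above the WT density of 90% of sites, 1.80 FPKM.

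The largest difference stood 227 kb upstream of Il12b, the p40 subunit of the interleukins 12 and 23, at chr11:43986739-43986939 (mm9). It measured 66.95 FPKM in HA-RevErba and 2.40 in WT, a ratio of 28.0 (15.9 to 54.4). The second was 1.42 kb upstream of Npas2, the CLOCK paralogue that pairs with BMAL1, at chr1:39249594-39249794, with 61.94 FPKM against 3.0 (ratio 20.7, 12.5 to 37.2). The third lay in intron 2 of 6 of Zbtb16, which encodes the zinc finger repressor PLZF, at chr9:48554675-48554875, with 51.90 FPKM against 2.20. Introns of Abr (50.09 against 3.20), of 1700010I14Rik (49.35 against 2.40) and of Cdkn1a, the cell cycle inhibitor p21 (41.13 against 2.80), followed within 10 kb of the starts. A site 59.4 kb downstream of the start of Rpa1, a subunit of the single-strand DNA binding protein RPA, combined a high density with little background (45.90 against 1.01 FPKM, ratio 46.0, 19.6 to 142). Other sites among the 12 largest differences, 1 per gene, were nearest to 2900052N01Rik, Dhrs3, Rpl31 and Jakmip3, with 33.23 to 38.74 FPKM in HA-RevErba. Of those named, the sites of Npas2, Abr and Cdkn1a lay within 5 kb of a start.

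Ratios ranked the sites otherwise, since they turned on few WT reads. Among the 1661 sites with at least 3 WT reads, high ratios were found in intron 6 of 11 of Trim2, a ubiquitin ligase (28.96 FPKM against 0.61, ratio 48.4, 16.4 to 236), and in intron 9 of 65 of Col5a1, a chain of collagen V (28.79 against 0.61, ratio 48.1, 16.3 to 235). Upstream of Npas2 and nearest Pdcl3, a chaperone of the phosducin family, a site measured 26.82 against 0.61 FPKM (ratio 44.8). Each of these 3 rested on 3 WT reads, so their intervals reached beyond 200 at the upper end and overlapped each other widely. Others among the 10 largest ratios, at Rpa1, 2900052N01Rik, Unc5b, Zc3h6, 4930405L22Rik and Gm29811, lay between 32.0 and 46.0. In 68 sites no WT read was present. The strongest of them, in intron 2 of 9 of Tcp11x2 on chromosome X, had 29.37 FPKM, which is 49.1 times the density of 3 WT reads, and the lower end of its counting interval was a ratio of 39.7.

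At the limits of the list the same counts recurred. The lowest ratio, 4.01 (1.84 to 10.3), was shared by 6 sites of 68 HA-RevErba and 7 WT reads, among them those nearest Frmd6 and Rybp, a subunit of Polycomb complexes (5.60 against 1.41 FPKM). The smallest difference, 3.01 FPKM, was shared by 12 sites, among them those nearest Cops8, a subunit of the COP9 signalosome, and G2e3 (3.22 against 0.21 FPKM, 39 against 1 read). Windows just outside the limits were not analysed here, because the list holds none.

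By the authors' annotation 1049 sites (48.1%, 45.9% to 50.2%) lay in introns and 998 (45.7%, 43.6% to 47.8%) between genes. Promoters held 65 sites (2.98%, 2.31% to 3.78%), transcript ends 27, 3' untranslated regions 21, exons 13, noncoding transcripts 7 and 5' untranslated regions 3. First introns held 362 of the intronic sites and later introns 687. The median distance to the nearest transcription start site (TSS) was 28.9 kb, with the middle 50% of sites between 10.4 and 73.3 kb. Within 1 kb of a TSS lay 90 sites (4.12%), within 10 kb 529 (24.2%) and within 100 kb 1800 (82.5%). Counted at the gene, 395 of 21896 protein-coding genes (1.80%) were the nearest gene of a site within 10 kb. Intergenic sites stood upstream of the nearest TSS in 676 cases and downstream in 322, whereas intronic sites stood downstream in 813 and upstream in 236. The shares of these classes in the genome or in accessible chromatin were not analysed here.

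**Figure D2:**
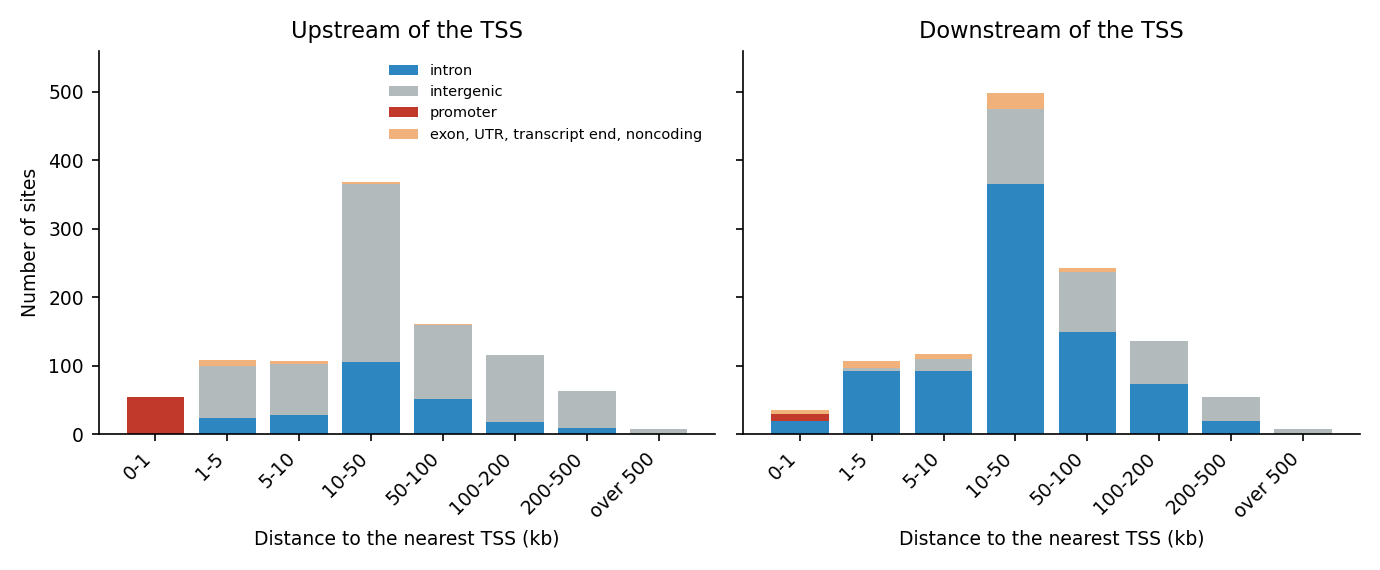
Number of sites (vertical) by distance to the nearest TSS in kb (horizontal), upstream on the left and downstream on the right, with colours for the annotation class. The bin of 10 to 50 kb is the fullest on both sides, with 369 sites upstream and 498 downstream, and promoter sites (red) are confined to the first bin.

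The classes are compared by their medians. The median density was 5.85 FPKM in introns, 5.52 between genes and 5.19 at promoters, and the median ratio was 7.50, 7.15 and 6.46. A ratio of 8 or more was reached by 480 intronic sites (45.8%), 431 intergenic sites (43.2%) and 22 promoter sites (33.8%). By distance the median ratio was 6.26 within 1 kb, 7.01 from 1 to 5 kb, 8.05 from 5 to 10 kb and 7.15 from 10 to 50 kb. These are medians over sites of 1 pair of pools and were not tested. Among the strongest promoter sites were those of Nr1d1 (34.80 against 4.79 FPKM), Sumo3 (15.88 against 2.0) and Mir7054 (15.39 against 1.80). The 5' untranslated class was led by Arntl (26.49 against 2.20), the exons by a site in Adam9 nearest Adam32 (18.76 against 1.21), the 3' untranslated regions by Fam228a (13.83 against 0.81) and the transcript ends by a site at Kif9 nearest Setd2 (15.39 against 1.60).

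Some weaker promoter sites are named here after their values were seen. The promoter of Lep, the adipocyte hormone leptin, held a site 208 bp upstream of the start with 5.36 FPKM against 0.81. That of Gpihbp1, which carries lipoprotein lipase to the capillary wall, held 3.71 against 0.61, and that of Hcar1, the lactate receptor of adipocytes, 4.12 against 0.81. Of 10 guanylate-binding protein genes, which encode interferon-induced GTPases of host defence, 4 had a site within 10 kb (40%, beside 1.80% of all protein-coding genes). Each of these sites lay at the promoter: Gbp6 (9.14 against 2.20 FPKM), Gbp7 (5.52 against 0.61), Gbp3 (5.36 against 0.61) and Gbp10 (4.04 against 0.81). Those 4 genes are paralogues of 2 clusters, so their values are uncertain where copies share sequence.

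The gene that holds a site was often not the gene it was assigned to. Of 1047 intronic sites whose transcript was found in the gene table, 310 (29.6%, 26.9% to 32.5%) lay in an intron of another gene than the one with the nearest TSS. For 191 of these the nearest gene was protein-coding and for 114 a noncoding RNA. Such sites had a median density of 5.97 FPKM and a median ratio of 7.89, against 5.77 and 7.24 for intronic sites in their nearest gene. They were 9 of the 25 strongest intronic sites, including sites in Col4a1, whose start lies beside that of Col4a2. The site of 33.56 FPKM (WT 3.0) nearest the microRNA gene Mir6995 lay in Sh3pxd2a, an adaptor of invadopodia. The site of 30.19 FPKM (WT 1.80) nearest Elfn1 lay in Mad1l1, which encodes the spindle checkpoint protein MAD1. A site nearest Mir378a, with 30.85 FPKM, lay in intron 1 of 11 of Ppargc1b, the coactivator PGC-1β. One nearest the noncoding RNA Gm15511, with 25.09 FPKM, lay in intron 1 of 9 of Rora, the activator that competes with Rev-Erbα for its element. Of the 1629 genes nearest to a site, 1231 had a single site and 297 had 2. The most sites, 9, were credited to the noncoding RNA 4933416E03Rik, and 7 each to Celf2, Dapk1 and Zfp608.

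Core clock genes held several of the strongest sites. Over the genome 1325 of 21896 protein-coding genes (6.05%) were the nearest gene of a site, and 1529 (6.98%) when genes holding a site in their body were added. Of 24 core clock genes 5 were the nearest gene (20.8%), namely Npas2, Nr1d1, Arntl, Cry1 and Nfil3, and Rora was added as a holder. All 5 had a site within 10 kb of the TSS (20.8% of the 24, beside 1.80% of all protein-coding genes). The 12 sites of these 5 genes had a median density of 14.5 FPKM and a median ratio of 11.0, beside 5.60 and 7.29 over all sites. Other clock genes on the list, such as Clock, Per1, Per2, Cry2, Dbp and Nr1d2, were not the nearest gene of any site at 29 °C, which for a list with limits is not a measurement of 0.

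Npas2 had 4 sites at or inside the gene. Besides the one 1.42 kb upstream, 3 lay inside the gene and were assigned to Rpl31, a ribosomal protein gene further downstream. They stood 94.3 kb (35.21 FPKM against 2.0), 108 kb (23.61 against 3.40) and 124 kb (31.51 against 2.60) past the Npas2 start, in introns 3, 5 and 7 of 20. Their ratios were 17.7 (9.51 to 37.1), 6.97 (4.27 to 12.1) and 12.2 (7.02 to 23.0), with intervals that overlapped. A further 2 sites, nearest Pdcl3, stood 169 kb (26.82 FPKM) and 108 kb (8.07 FPKM) upstream of Npas2.

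**Figure D3:**
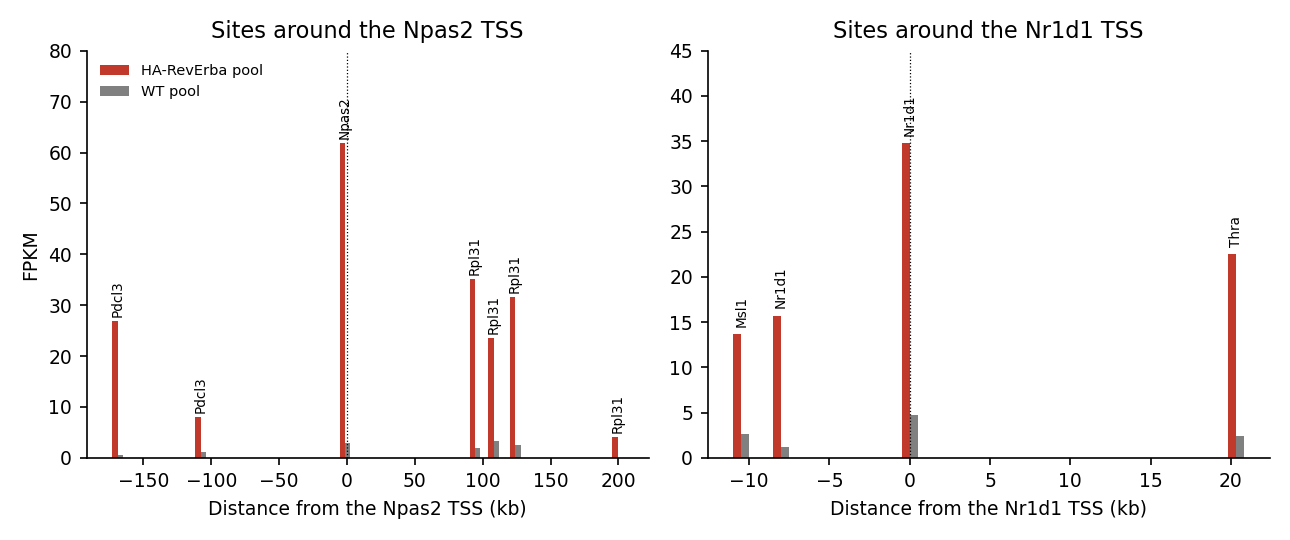
Density in FPKM (vertical) of the HA-RevErba pool (red) and the WT pool (grey) at every site within 200 kb of the Npas2 start (left) and the Nr1d1 start (right), by distance in kb, each labelled with its nearest gene. The tallest bars stand next to the starts, at 61.94 FPKM for Npas2 and 34.80 for Nr1d1, and the 3 sites labelled Rpl31 nearest the centre lie within Npas2.

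Nr1d1 had 2 sites of its own, at the promoter and 8.04 kb upstream (15.72 FPKM against 1.21, ratio 13.1, 5.92 to 36.2). They formed a group of 4 within 31.0 kb with a site nearest Msl1 (13.66 against 2.60) and one in intron 2 of 8 of Thra, the thyroid hormone receptor gene that overlaps the Nr1d1 locus tail to tail (22.54 against 2.40). Arntl, whose product BMAL1 is the partner of CLOCK and NPAS2, had a site at 153 bp (26.49 against 2.20, ratio 12.1, 6.66 to 24.4) and sites in intron 2 at 35.5 kb (6.75 FPKM, no WT read) and 43.8 kb (17.77 against 2.40). Cry1, a repressor of the BMAL1 complexes, had its main site in intron 1 at 23.1 kb (36.11 against 3.40, ratio 10.7, 6.58 to 18.5) and a small one at 1.28 kb (4.53 against 0.41). Nfil3, a repressor at D-box elements, had 4 sites, the strongest at the promoter (13.25 against 0.81, ratio 16.6, 6.36 to 61.7) and one in its intron (9.30 against 1.21). The other 2, at 87.0 kb (5.60 against 0.81) and 145 kb upstream (4.70 against 0.81), were weaker, and the second lay inside Ror2.

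**Figure D4:**
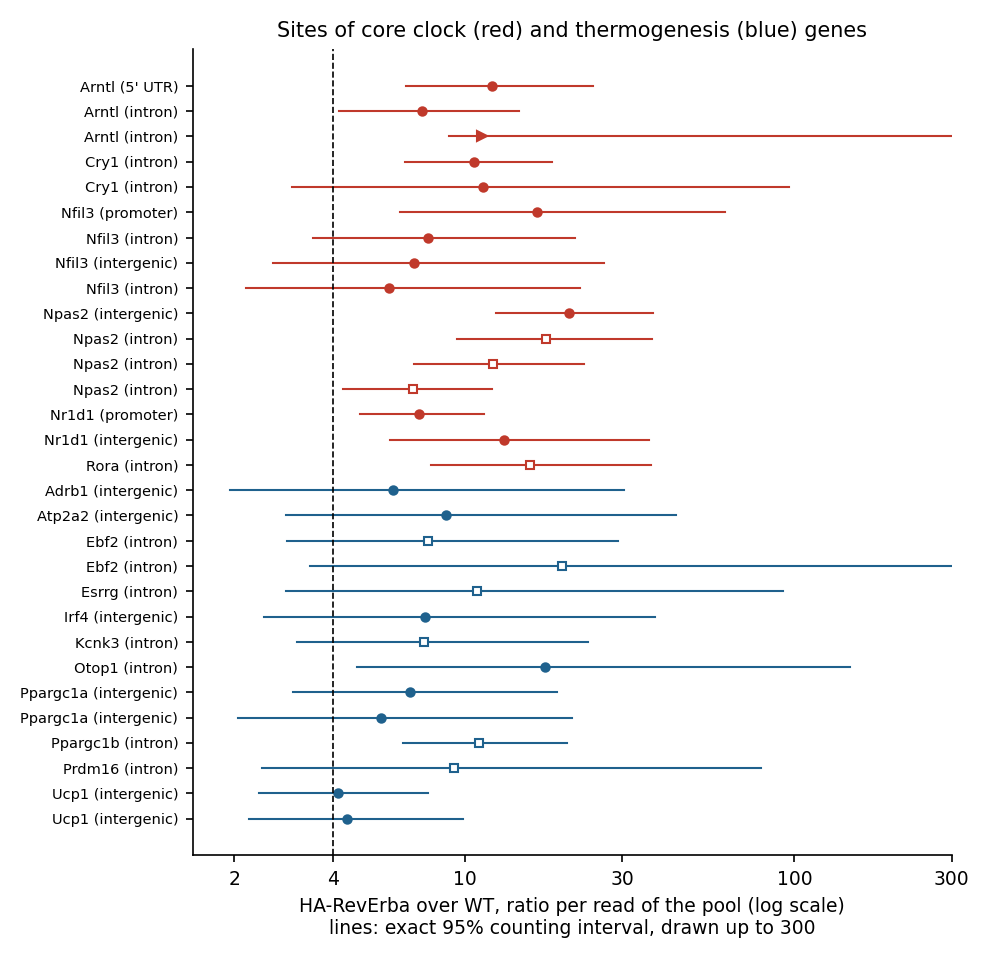
Ratio of HA-RevErba to WT (horizontal, log scale) with its exact 95% counting interval at each site of core clock genes (red) and thermogenesis genes (blue), with open squares for sites inside a gene that is not the nearest and a triangle for a lower bound at a site without WT reads. The dashed line marks the limit of 4, which the intervals of most blue sites cross, among them both sites of Ucp1.

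Thermogenesis genes nearest to a site had lower densities than the clock genes, mostly at sites far from the start. Of 28 genes 6 were the nearest gene of a site (21.4%, beside 6.05% of all protein-coding genes). With holders added they were 11 (39.3%, beside 6.98%). A single one of the 28, Ucp1, had a site within 10 kb (3.57%, beside 1.80% of all protein-coding genes). The 8 sites of the 6 nearest genes had a median density of 6.13 FPKM and a median ratio of 6.43. Ucp1, the uncoupling protein that makes heat in brown fat, had a site 5.82 kb upstream (chr8:85808331-85808531, 11.52 FPKM against 2.80) and one 4.72 kb upstream (7.91 against 1.80). Their ratios, 4.13 (2.38 to 7.74) and 4.40 (2.22 to 9.92), were close to the list's limit, and their WT densities were at or above that of 90% of sites. Ppargc1a, the coactivator PGC-1α that drives mitochondrial biogenesis, had sites 24.0 kb (8.15 against 1.21) and 28.2 kb upstream (4.45 against 0.81). Single sites were assigned to Otop1, a proton channel (7.0 against 0.41), Atp2a2, the calcium pump SERCA2 (5.27 against 0.61), Irf4, a thermogenic transcription factor (4.53 against 0.61), and Adrb1, the β1-adrenergic receptor (3.63 against 0.61).

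The strongest thermogenic site was found by its host gene and not by its nearest start. It lay in intron 1 of 11 of Ppargc1b at chr18:61543345-61543545, with 30.85 FPKM against 2.80 (ratio 11.1, 6.51 to 20.4). Kcnk3, a potassium channel of brown adipocytes, held a site of 7.49 FPKM against 1.01. Ebf2, a brown adipocyte selector factor, held 2 sites (6.18 against 0.81 and 3.96 against 0.21). Esrrg, an orphan receptor of oxidative metabolism, held 1 of 4.37 against 0.41, and Prdm16, the brown fat determination factor, 1 of 3.71 against 0.41. For these 4 genes the lower ends of the counting intervals lay below 4.

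Lipid and glucose lists stood at 1 to 6 genes each, beside a background of 6.05% of all protein-coding genes nearest to a site. For fatty acid synthesis 5 of 22 genes were the nearest gene (22.7%), with 7 sites of 4.12 to 8.81 FPKM: Elovl5, an elongase (8.81 against 1.41), Insig1, which holds back SREBP (7.99 against 1.41), Thrsp, a lipogenic regulator (7.41 against 1.01), Fads2, a desaturase (5.60 against 0.41), and Scd1, the stearoyl-CoA desaturase, with 3 sites (5.19 against 0.81, 5.11 against 1.01 and 4.12 against 0.61). Thrsp alone had its site within 10 kb (4.55%, beside 1.80% of all protein-coding genes). In the cholesterol list 1 of 17 genes was nearest (5.88%, close to the background), Hmgcs1, whose 2 sites lie on unplaced sequence at nearly the same distance (25.9 kb) and are uncertain as copies of each other. In fatty acid oxidation 4 of 25 were nearest (16%), led by Acsl1, an acyl-CoA synthetase (10.70 against 1.41), and Pdk4, the kinase that shuts off pyruvate dehydrogenase (7.33 against 0.41). Triglyceride metabolism had 5 of 22 (22.7%), with Agpat3 (11.28 against 2.0), Mgll, the monoglyceride lipase, with 3 sites (9.22, 6.42 and 6.26 FPKM), and Dgat1 (7.66 against 1.41). Lipid uptake had 4 of 15 (26.7%), with a site 73.6 kb from the start of Lpl, lipoprotein lipase (7.82 against 1.01). In glucose uptake and glycolysis 6 of 29 were nearest (20.7%), led by Tbc1d4, the insulin-regulated brake on GLUT4 traffic, with 3 sites in intron 1 (26.66 against 1.60, 14.90 against 2.60 and 4.94 against 0.61). The tricarboxylic acid cycle and respiratory chain had 2 of 24 (8.33%, close to the background of 6.05%), Sucla2 and Nrf1.

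Over all protein-coding genes 6.05% were the nearest gene of a site, and 6.98% with holders. Transcription factors of adipocyte differentiation were the list with the largest share, 11 of 24 nearest (45.8%) and 13 with holders (54.2%). Their sites were mostly distant: 1 gene, Klf15, had one within 10 kb (4.17%, beside 1.80% of all protein-coding genes), at 1.08 kb (4.78 against 0.61 FPKM). The 17 sites of the 11 nearest genes had a median density of 5.44 FPKM and a median ratio of 6.96, both below those of all sites. The strongest lay in intron 4 of 8 of Nfib (21.89 against 1.41, ratio 15.7, 7.50 to 39.4), followed by Klf4 at 498 kb (11.44 against 0.61) and Klf9 at 106 kb upstream (9.71 against 1.41). Nr3c1, the glucocorticoid receptor, had 3 sites of 4.53 to 8.65 FPKM, of which 2 lay inside Arhgap26. Whether genes with wide intergenic flanks are the nearest gene more often was not tested. Among corepressors and partners of Rev-Erbα 4 of 14 were nearest (28.6%, beside 6.05% of all protein-coding genes). Nrip1, the corepressor RIP140, had sites 134 kb (21.31 against 1.41) and 236 kb upstream (13.09 against 2.40), and Tbl1xr1 and Tbl1x, exchange factors of corepressor complexes, had sites of 7.91 FPKM against 0.81 and 4.29 against 0.81.

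Markers of other cell types were looked up in the same way. None of 14 macrophage and none of 14 skeletal muscle marker genes was the nearest gene or held a site. Over all protein-coding genes that share was 6.98%, so 0 in lists of 14 is not far from it. Of 14 endothelial markers 4 were nearest (28.6%, beside 6.05% of all protein-coding genes): Kdr, the VEGF receptor (8.32 against 1.21 and 5.52 against 0.81 FPKM), Cdh5 (4.70 against 0.41 and 4.37 against 0.81), Flt1 (3.71 against 0.41) and Sox18 (3.88 against 0.61). Of 12 white adipocyte markers 2 were nearest (16.7%, beside 6.05% of all protein-coding genes), Lep and Retn (3.63 against 0.21). Of 11 smooth muscle and pericyte markers 1 was (9.09%), Notch3 (4.12 FPKM, no WT read). Of 13 nerve and Schwann cell markers 1 was (7.69%), Mbp (4.45 against 0.81). The smooth muscle and nerve shares lay close to the 6.05% of all protein-coding genes. Binding sites do not measure expression, so the labelled tissue could not be checked against marker levels, and in which cells the endothelial sites arose was not tested.

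**Figure D5:**
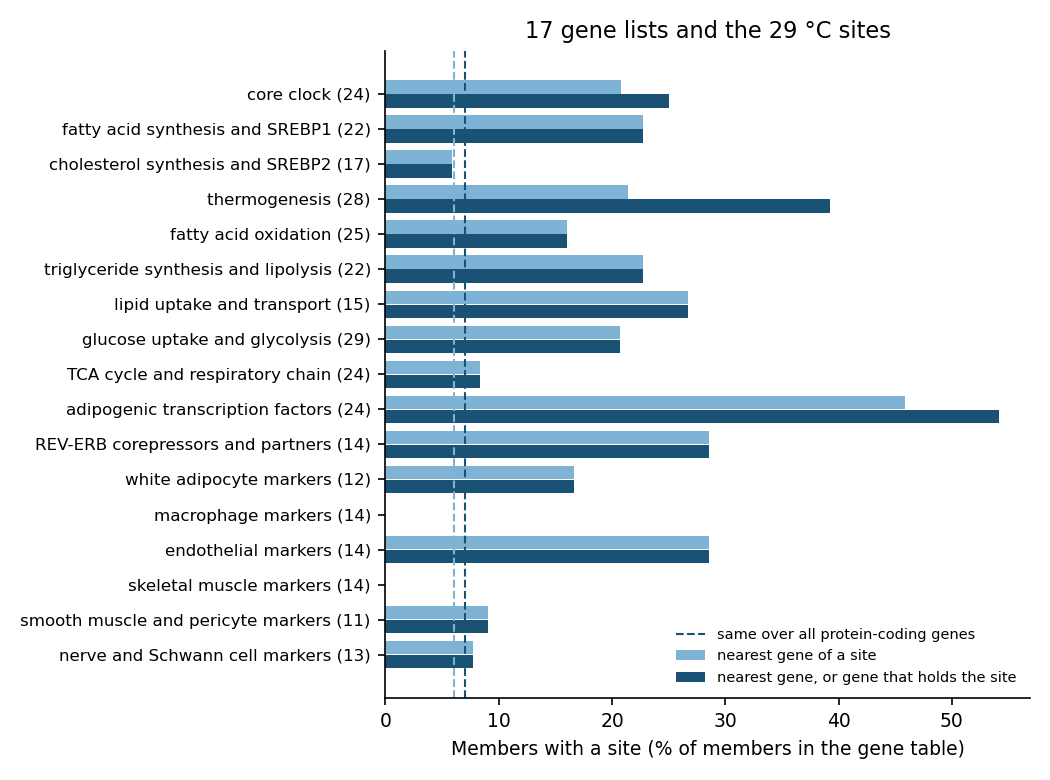
Percent of the members of 17 gene lists (number of members in brackets) that were the nearest gene of a site (light bars) or the nearest gene or its holder (dark bars), with dashed lines for the same over 21896 protein-coding genes. Adipogenic transcription factors reach 45.8% and 54.2%, thermogenesis 21.4% and 39.3%, and macrophage and skeletal muscle markers have no bar.

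Sites were often near another. With gaps of up to 50 kb, 860 sites (39.4%) fell into 364 groups of 2 or more, and 1323 stood alone. The grouped share was 16.7% with gaps of 10 kb and 51.8% with gaps of 100 kb. Among the strongest 218 sites 110 (50.5%) were in a group, against 38.2% of the others, and the median density was 6.18 FPKM in groups and 5.36 alone. The largest groups had 6 sites. One of them spanned 146 kb between Irf2bp2 and Tomm20 (6.84 to 27.81 FPKM), one 151 kb at Lrig2 and Slc16a1, the lactate transporter MCT1 (3.71 to 14.07), and one 69.7 kb between Bcl6, a transcriptional repressor, and Lpp (5.19 to 11.77). The group at Nr1d1, Thra and Msl1 had the largest summed difference of the 24 groups of 4 or more, 75.7 FPKM. Chromosome X held 26 sites (1.19%) with a median density of 4.94 FPKM in HA-RevErba and 0.41 in WT, beside 5.60 and 0.81 over all sites. Of the 26, 19 (73.1%) were at least 8 times WT, beside 44% of all sites. Their WT median lay under the 0.598 FPKM of 3 WT reads, so these ratios rest on few WT reads.

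Depth was known for each library. The HA-RevErba libraries had 26.97 to 36.95 M aligned reads (mean 30.9 M ± 4.68, SD, n = 4) and the WT libraries 27.4 and 36.1 M. The difference of means, -0.799 M, was smaller than the SD among HA-RevErba libraries (exact permutation test, two-sided, of all 15 ways to split the libraries, p = 0.933, adjusted over the 2 library measures 0.933, smallest possible 0.0667). Between 2.54% and 3.48% of reads did not align (difference of means -0.172 percentage points, exact permutation p = 0.8, adjusted 0.933), and these p-values measure only the spread between libraries, which may be technical. The pool values corresponded to 60.8 M reads of HA-RevErba, 49.2% of those aligned, and 25.1 M of WT, 39.5%. In these pools 3 reads equal 0.247 FPKM of HA-RevErba and 0.598 of WT, so WT densities under about that level are not resolved.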

How the data were processed

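ChIP-seq with HA beads was measured in 4 HA-RevErba and 2 WT libraries at 29 °C, grouped by sample title. Bowtie2 2.1.0, HOMER 4.10 and mouse build mm9 appear, with no role stated, per the submitters' processing notes. Peak-calling settings were not given in the sources used here. Deposited per library were aligner logs with read counts. Per the file headers, 1 peak list was made on pooled libraries with an FPKM for each pool; deposited FPKM exceed the reads per kilobase and M reads by 0.01. The score deposited by the authors equals 1.99 to 2.0 times the HA-RevErba FPKM, and their difference column equals HA-RevErba minus WT in every row. Columns of the 4 °C pools (3) were not used.

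All FPKM, less 0.01, were whole multiples of the value of 1 read (100% within 0.01), which gave reads per site and the ratios. Their intervals cover counting error alone, because reads that carry no molecular identifier need not be independent molecules. No p-value was made across sites. Annotation and distances are the authors'. Coordinates are printed as deposited, and whether starts count from 0 or 1 was not stated. Host genes came from the annotated transcript, and names, biotypes and promoter windows from RefSeq (GRCm38.p6, matched by gene ID; all 1629 nearest genes matched). Read recovery and intervals were tested on simulated data. Named were the 12 largest differences, 10 largest ratios (at least 3 WT reads) and 10 highest WT values, 5 sites nearest each limit, 4 per annotation class, the 5 genes with the most sites, members with a site of the clock, fatty acid synthesis and thermogenesis lists and up to 4 of each other list. A few named by this rule are not reported here. Others were named after their values were seen. Sites, lists and rule were chosen with earlier results of these data known. Alternatives were scaling by aligned reads, 0.5 FPKM added, other intervals, limits, distances and gaps, host genes (the gaps and host genes chosen after seeing the data), and leaving out each library. Python 3.11.15, scipy 1.17.1 and pandas 2.3.3 were used.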

Additional observations from a re-analysis of the deposited data

How the results depend on the processing

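The median ratio of 7.29 was 9.06 with pools scaled by aligned reads, 4.72 with 0.5 FPKM added to both densities, 6.19 over sites with at least 3 WT reads and 7.22 on autosomes. The 466 sites with an interval above 4 were 278 with 99% intervals and 741 with aligned-read scaling. The 961 sites at least 8 times WT were 317 with 0.5 FPKM added and 1285 with aligned-read scaling. The promoter share of 2.98% was 4.12% within 1 kb, 14.0% within 5 kb, 2.26% at sites at least 6 times and 6 FPKM over WT (575 sites) and 1.86% at 8 times (429 sites). At the 575 sites the intergenic share was 42.96% and the intronic share 52.7%, and the median distance 29.95 kb. Of 320 genes of the lists 61 were the nearest gene of a site, 46 within 50 kb and 25 within 10 kb. They were 24 at the stricter sites and 68 with host genes. Of 21896 protein-coding genes 1325 (6.05%) were the nearest gene, 395 (1.80%) within 10 kb and 1529 (6.98%) with host genes. The causes were not tested, beyond the fewer sites that the stricter limits and distances keep.

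Leaving out 1 library at a time moved the difference in aligned reads between -5.14 and 3.54 M, and it turned positive without the HA-RevErba library of 26.97 M reads (0.517), that of 27.46 M (0.356) or the WT library of 36.06 M (3.54). The difference in reads not aligned ran from -0.354 to -0.0414 percentage points. No paired analysis was possible because the HA-RevErba libraries carry other numbers than the WT libraries and the site values are pooled. Depth limits the WT side: a median of 4 reads leaves intervals wide, and single libraries could not be left out of the site values.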

Other observations

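Collagen genes, noticed after the values were seen and so given without a test, held a number of strong sites. Of 44 collagen chain genes 9 were the nearest gene of a site or held one (20.5%, beside 6.98% of protein-coding genes), with 22 sites of 3.63 to 28.79 FPKM in HA-RevErba (median 8.11) and a median ratio of 6.17. Of these, 7 sites were among the strongest 218. The neighbours Col4a1 and Col4a2, chains of basement membrane collagen IV, carried a row of sites along both genes, in each of which the nearest start was that of the other gene or of a noncoding RNA. By their distances to these sites, the Col4a1 and Col4a2 starts lie side by side. Which of them was nearer therefore turned on few bases. The strongest, 27.23 and 26.33 FPKM, lay in intron 1 of 52 of Col4a1. Col6a1 and Col6a2, chains of collagen VI, had 4 intergenic sites (24.44, 23.78, 7.0 and 5.44 FPKM). Of the 44 collagen genes 2 had a site within 10 kb of the start, beside 1.80% of all protein-coding genes.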
